A study of Mus musculus with 6 samples.

Results

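The block is a run of protein-coding genes on mouse chromosome 10, most of which lay higher in Matr3 knockout than in wild-type Hepa1-6 cells. Its members were all protein-coding rows whose gene start, in the coordinates of the deposited table, fell between 80864372 and 82733546 and that held at least 300 counts over the 6 libraries. Glt8d2, Txnrd1 and genes whose names start with Slc, Zfp, Aldh, Sf3, Nduf, Adam, Plpp or Rps were left out. This gave 35 members among 108 rows of the table inside the interval, out of 55573 rows in all. Of the 60 protein-coding rows inside, 42 reached the count minimum, 7 of those were left out by name, and 18 stayed under it. The remaining 48 rows were not protein-coding. The interval and its bounds came from this same comparison of knockout with wild type, so the members' fold changes are given as a description, with no test.

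The study measured RNA by bulk mRNA-seq in 3 libraries labelled Matr3 knockout (KO1, KO2 and KO3) and 3 labelled wild type (WT1, WT2 and WT3). All 6 came from Hepa1-6, an established mouse liver cancer line, and the knockout was made with CRISPR/Cas9; no other allele, agent or time point is given. Matr3 encodes matrin 3, a nuclear matrix protein that binds RNA and DNA. Whether libraries of a group stand for separate cultures, and whether the knockout is a single clone, is not stated, so a p-value here measures the spread between libraries, which may be technical. Bulk RNA cannot tell apart a change in every cell from a change in the share of cells that express a gene.

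Values are CPM, read counts relative to the library's TMM-scaled total, unless FPKM, which also divides by gene length, is named. Library totals ran from 23126778 to 30794032 counts in knockout and from 20736570 to 27578804 in wild type. Matr3 itself stood at 75.96, 86.1 and 75.3 CPM in KO1, KO2 and KO3, against 129, 125 and 134 CPM in WT1, WT2 and WT3, a log2 fold change of -0.71 with an adjusted p of 0.0027 by edgeR's quasi-likelihood test. Reads of Matr3 thus remained in the knockout libraries, all below every wild-type library. Of 9 hepatocyte lineage markers, Krt8, Krt18 and Foxa2 were expressed, Afp and Apoa2 were near or under 5 CPM, and Alb, Apoa1, Ttr and Hnf4a were under 1 CPM in every library. The summed level of the 9 was 1083, 1036 and 1098 CPM in knockout and 594, 704 and 675 CPM in wild type, nearly all of it from the keratins. The 4 fibroblast markers summed to 531 to 643 CPM in knockout and 585 to 685 CPM in wild type, carried by Col3a1. The 3 endothelial markers summed to under 5 CPM in every library and the 4 macrophage markers to 10.6 to 16.004 CPM, with Adgre1 and Lyz2 at 0. The part of these markers in the results on the block was not tested.

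Within groups, KO1 and KO3 lay close together (chi-square of 3.41 per gene over their counts), while KO2 stood at 54.8 and 65.7 from them. WT2 and WT3 were 6.19 apart, and WT1 stood at 23 and 27.4 from them. Distances between knockout and wild-type libraries ran from 43 to 74.2. KO2 thus lay farther from KO1 and KO3 than some wild-type libraries did. KO2 and WT1 therefore stand apart from their groups, and the main counts are also given without them, an alternative chosen after the data were seen.

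Genes that sit side by side on a chromosome mostly serve unrelated functions, and the members here are such a mixture: a translation factor, kinases, a G protein subunit, transcription factors and corepressors, a DNA repair enzyme, an activator of mitotic ubiquitination and a cluster of zinc finger genes. Neighbours can share a promoter region, as head-to-head gene pairs do, or lie in a common chromatin domain. The human counterparts of the members from Sgta to Sirt6 lie together on one chromosome, and those of Tdg, Hcfc2 and Nfyb on a different one, so the mouse block joins segments that are separate in humans.

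The start regions of 4 members are shown as a description of sequence. Eef2 was chosen as the most abundant member, Dapk3 as its neighbour 506 bases downstream on the same strand, Hcfc2 as the member with the largest fold change and Map2k2 as a member with none. The sequences are the 250 bases before the annotated transcript start, 5′ to 3′ on the gene's own strand, from RefSeq on build GRCm38.p6. Capitals mark matches on either strand to 4 motifs. They were the NF-Y motif CCAAT, the motif GGGCGG known as the GC box, the core promoter motif TATAAA and the cyclic AMP response element TGACGTCA.

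Eef2 (chr10:81176381-81176630, plus strand): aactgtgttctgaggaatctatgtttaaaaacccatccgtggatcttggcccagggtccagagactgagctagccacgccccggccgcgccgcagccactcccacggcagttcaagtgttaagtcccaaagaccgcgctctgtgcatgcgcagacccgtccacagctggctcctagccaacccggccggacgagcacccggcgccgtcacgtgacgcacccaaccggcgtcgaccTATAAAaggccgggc

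Dapk3 (chr10:81182757-81183006, plus strand): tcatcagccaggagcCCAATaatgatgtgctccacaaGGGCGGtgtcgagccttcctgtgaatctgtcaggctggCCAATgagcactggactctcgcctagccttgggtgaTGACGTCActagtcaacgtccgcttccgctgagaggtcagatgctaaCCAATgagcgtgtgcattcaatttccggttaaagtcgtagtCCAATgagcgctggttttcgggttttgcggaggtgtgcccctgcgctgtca

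Hcfc2 (chr10:82698757-82699006, plus strand): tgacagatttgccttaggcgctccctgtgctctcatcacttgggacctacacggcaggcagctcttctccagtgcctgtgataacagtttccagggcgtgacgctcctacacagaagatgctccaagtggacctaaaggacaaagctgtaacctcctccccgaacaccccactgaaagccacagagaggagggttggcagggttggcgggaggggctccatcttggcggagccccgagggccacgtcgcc

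Map2k2 (chr10:81105665-81105914, plus strand): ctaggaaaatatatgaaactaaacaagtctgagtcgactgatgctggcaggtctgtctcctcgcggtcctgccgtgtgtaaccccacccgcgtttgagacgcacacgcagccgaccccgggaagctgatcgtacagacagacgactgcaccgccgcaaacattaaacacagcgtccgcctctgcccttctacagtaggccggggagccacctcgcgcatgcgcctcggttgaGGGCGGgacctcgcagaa

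The Eef2 window holds a single TATAAA close to the start and none of the other motifs. The Dapk3 window, the first of 3 for this gene, holds 4 CCAAT matches, 1 GC box and 1 TGACGTCA. No match to the 4 motifs is in the Hcfc2 window, the first of 2 for this gene, and the Map2k2 window has 1 GC box. None of the 4 motifs is in all 4 windows. A match is a description of sequence, not of binding.

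Across the 35 members, 31 had a positive log2 fold change (knockout over wild type), with a median of 0.55, which is 1.46-fold. The quartiles were 0.36 and 0.72, and the range ran from -0.21 for Thop1 to 1.13 for Hcfc2. In the fit of all 14842 tested genes, 14 members were called higher and 0 lower at an adjusted p under 0.05, while 21 did not pass. DESeq2 and limma voom also called 0 lower, and edgeR had 0 lower at an unadjusted p under 0.05. Over all tested genes 7.69% were called higher and 7.48% lower, and the median log2 fold change was -0.02. In 19 members every knockout library lay above every wild-type library, and in 0 members below. Over all tested genes the first of these held for 18.3% and the second for 18.4%. Because the interval was picked on this contrast, nothing is read from these shares. The members took 0.907%, 0.805% and 0.874% of all counts in KO1, KO2 and KO3, against 0.533%, 0.592% and 0.566% in WT1, WT2 and WT3.

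**Figure D1:**
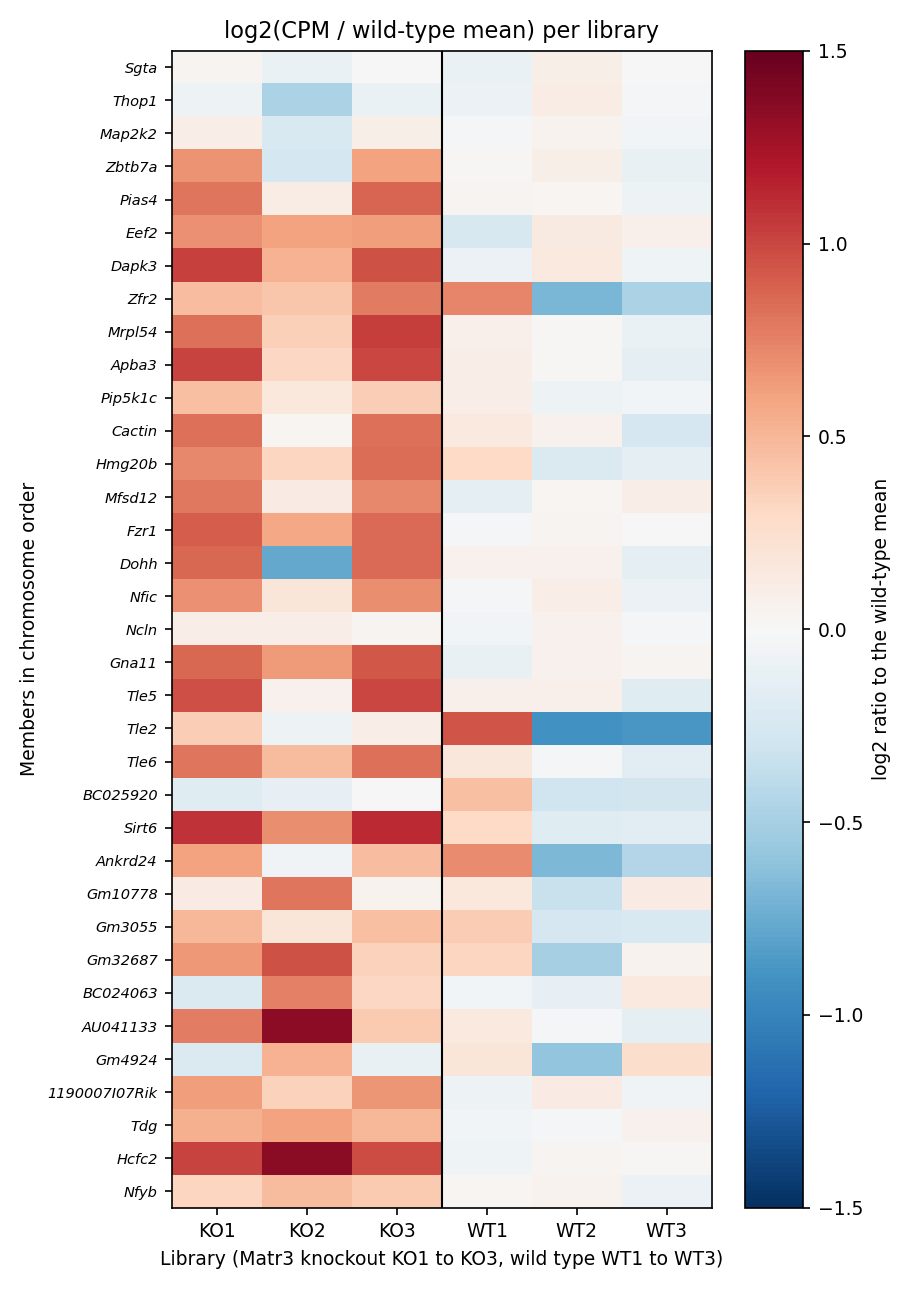
Each row is a member in chromosome order and each column a library, with the 3 Matr3 knockout libraries left of the 3 wild-type libraries; colour gives log2 of CPM over the wild-type mean, red above and blue below. The first 3 rows are pale throughout, most rows from Zbtb7a down are red in KO1 and KO3, and KO2 is paler than KO1 and KO3 in the upper rows.

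Eef2 gave the block most of its reads. Eef2, elongation factor 2, is the GTPase that moves the ribosome along the mRNA after each peptide bond, and lies at 81012465 to 81018332 on the plus strand. It was counted at 6015, 5670.0 and 5770.2 CPM in KO1, KO2 and KO3, against 3162, 4108 and 3953 CPM in WT1, WT2 and WT3. The knockout libraries were tightly grouped and all above wild type, in which WT1 was the lowest. The log2 fold change was 0.64 (SE 0.12), or 1.56-fold. Eef2 alone made up 0.604%, 0.577% and 0.575% of the reads counted in KO1, KO2 and KO3, and 0.327%, 0.398% and 0.386% of those in WT1, WT2 and WT3. Ordered by count from the top, it stood at place 3, 4 and 3 in KO1, KO2 and KO3, and at place 7, 5 and 7 in WT1, WT2 and WT3. Per length it was also the highest member, at 1751 FPKM in knockout and 1119 FPKM in wild-type libraries.

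Mrpl54, a protein of the large mitochondrial ribosomal subunit, had 55.9, 40.5 and 64.7 CPM in the knockout libraries, against 33.4, 31.9 and 29.4 CPM in wild type. The groups did not overlap, KO2 was the lowest of its group, and the log2 fold change was 0.77 (SE 0.16). Dohh, the hydroxylase that completes hypusine on the translation factor eIF5A, had 27.8, 8.94 and 27.5 CPM in the knockout libraries, against 15.9, 15.98 and 13.9 CPM in wild type. KO1 and KO3 were above and KO2 below all 3 wild-type libraries, so the log2 fold change of 0.49 had a wide error (SE 0.37). Over 18 alternative settings of the fit it ran from 0.28 to 0.89, the highest without KO2 and WT1. Gm48551, a row on the same strand that covers 3887 bases of Dohh, held 32 counts, against 2842 for Dohh. Of these 3 translation genes, 2 were called higher, against 7.69% of all tested genes.

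Among the 4 signalling members, Gna11 and Dapk3 were called higher, as were 7.69% of all tested genes, while Pip5k1c and Map2k2 were not. Gna11, the G alpha subunit that couples receptors to phospholipase C beta, was at 155, 132 and 161 CPM in KO1, KO2 and KO3, against 78.5, 88.4 and 87.4 CPM in WT1, WT2 and WT3. Even the lowest knockout library, KO2, was well above the highest wild-type library, and the log2 fold change was 0.81 (SE 0.11), or 1.76-fold. Dapk3, a serine/threonine kinase of the death-associated family that phosphorylates myosin light chain, had 65.7, 46.02 and 62.3 CPM in the knockout libraries, against 30.1, 35.5 and 30.9 CPM in wild type. The groups were separate, with KO2 again lowest, at a log2 fold change of 0.85 (SE 0.14).

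Pip5k1c, which makes phosphatidylinositol bisphosphate at the membrane, had 135, 111 and 128 CPM in the knockout libraries, against 106, 94.2 and 96.5 CPM in wild type. The gap between KO2 and WT1 was small, and the log2 fold change was 0.33 (SE 0.10). Map2k2, the MAP kinase kinase that activates ERK, had 111, 88.8 and 110.1 CPM in the knockout libraries, against 103, 107 and 101 CPM in wild type. Its groups overlapped around equal means, with a log2 fold change of -0.01 (SE 0.11).

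**Figure D2:**
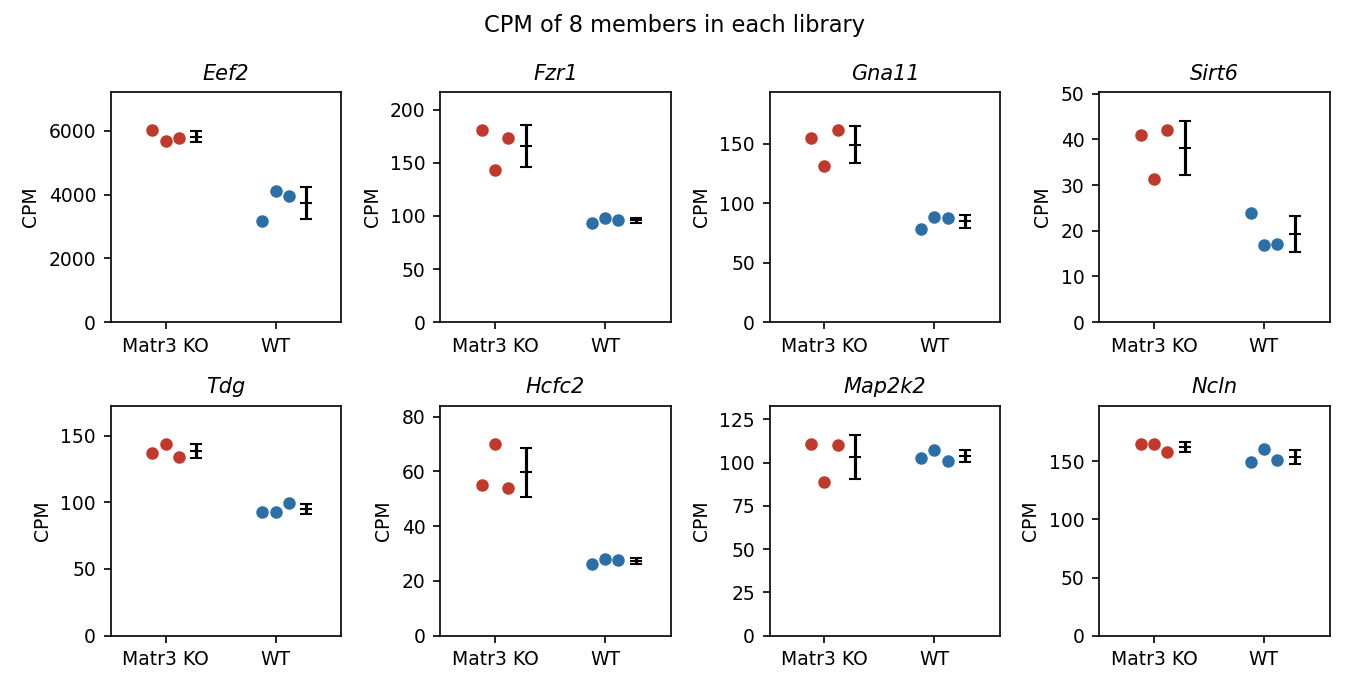
CPM of 8 members in each library, 1 panel a gene with its own axis from 0; points are single libraries, with Matr3 knockout left of wild type, and the bar beside them is the mean with its SD over 3 libraries. Eef2, Fzr1, Gna11, Sirt6, Tdg and Hcfc2 have every knockout point above every wild-type point, while the points of Map2k2 and Ncln overlap.

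The 8 transcription factors and cofactors had log2 fold changes from 0.15 to 1.13, with 5 called higher, against 7.69% of all tested genes. Hcfc2, a relative of the host cell factor that docks on chromatin-modifying complexes, showed the largest change among the members. It lies at 82531994 to 82578262 on the plus strand and had 55.1, 70.1 and 53.99 CPM in KO1, KO2 and KO3, against 26.2, 28.2 and 27.7 CPM in WT1, WT2 and WT3. The knockout libraries were all above wild type by a wide gap, and here KO2 was the highest. The log2 fold change was 1.13 (SE 0.12), or 2.18-fold.

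Nfic, of the nuclear factor I family of DNA-binding proteins, had 371, 262 and 373 CPM in the knockout libraries, against 229, 247 and 216 CPM in wild type. All knockout libraries were higher, KO2 by little over WT2, at a log2 fold change of 0.54 (SE 0.14). An overlapping long noncoding RNA on the opposite strand, Gm16104, shares 2005 bases with Nfic but held only 296 counts, against 44616 for Nfic. Nfyb, the NF-Y subunit with a histone-like fold that helps bind CCAAT boxes, is the last member along the chromosome and had 57.8, 64.1 and 60.6 CPM in the knockout libraries, against 47.4, 47.8 and 43.5 CPM in wild type. Its groups were tight and separate, with a log2 fold change of 0.40 (SE 0.09).

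Hmg20b, an HMG-box subunit of the LSD1 and CoREST complex, had 55.7, 42.3 and 60.4 CPM in the knockout libraries, against 41.3, 29.1 and 30.7 CPM in wild type. KO2 and WT1 came close to each other, without overlap, at a log2 fold change of 0.65 (SE 0.17). Zbtb7a, a zinc finger repressor with a BTB domain, had 113, 58.7 and 107 CPM in the knockout libraries, against 71.4, 75.2 and 65.1 CPM in wild type. KO1 and KO3 were above and KO2 below all wild-type libraries, and the log2 fold change was 0.39 (SE 0.22). Over 18 alternative settings of the fit it ran from 0.26 to 0.64, the highest without KO2 and WT1.

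The block holds 3 genes of the Groucho family of corepressors. Tle5, a short member of the family, was the most abundant of them and had 638, 341 and 653 CPM in the knockout libraries, against 344, 344 and 288 CPM in wild type. KO1 and KO3 stood far above wild type, KO2 lay among the wild-type values, and the log2 fold change was 0.74 (SE 0.23). Tle6, known from the maternal complex of the mouse egg, had 42.9, 34.4 and 43.7 CPM in the knockout libraries, against 27.7, 24.3 and 22.03 CPM in wild type. These groups were separate, at a log2 fold change of 0.71 (SE 0.13). Tle2, a full-length corepressor, had 23.7, 17.4 and 19.6 CPM in the knockout libraries, against 35.3, 9.77 and 10.04 CPM in wild type. WT1 was the highest library of all and the other wild-type libraries the lowest, so the log2 fold change of 0.15 (SE 0.46) rests on WT1, and it was 1.05 without WT1, -0.15 without WT2 and -0.14 without WT3. Tle2 and Tle6 end tail to tail with 58 bases between them.

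All 4 members with roles in SUMO conjugation, the cell cycle, DNA repair and chromatin had knockout libraries above every wild-type library. The same held for 18.3% of all tested genes, and since the interval was picked on this contrast, nothing is read from the 4. Fzr1, the Cdh1 activator of the anaphase-promoting complex, lies at 81202056 to 81214350 on the minus strand and had 180.4, 143 and 173 CPM in KO1, KO2 and KO3, against 93.7, 98.3 and 95.7 CPM in WT1, WT2 and WT3. The wild-type libraries were nearly equal and the knockout libraries all higher, with a log2 fold change of 0.79 (SE 0.11), or 1.72-fold. Sirt6, a NAD-dependent deacylase of chromatin, had 40.99, 31.3 and 41.96 CPM in the knockout libraries, against 23.8, 16.96 and 17.1 CPM in wild type. It showed the second largest change among the members, at a log2 fold change of 0.98 (SE 0.17), or 1.98-fold, with WT1 the highest wild-type library.

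Tdg, the glycosylase that removes thymine and oxidised methylcytosine opposite guanine, had 137, 144 and 134 CPM in the knockout libraries, against 92.6, 92.9 and 99.3 CPM in wild type. Both groups were tight and far apart, at a log2 fold change of 0.54 (SE 0.08). Its 3' end overlaps Glt8d2 on the opposite strand over 367 bases. Glt8d2, itself left out by name, had a log2 fold change of 1.98 and 7653 counts against 18577 for Tdg. Since the strandedness of the counting is not stated, reads in that overlap cannot be assigned with certainty. Pias4, a SUMO ligase, had 72.1, 44.9 and 75.6 CPM in the knockout libraries, against 42.7, 42.3 and 39.3 CPM in wild type. KO2 was just above the wild-type range, and the log2 fold change of 0.63 (SE 0.18) did not pass in the fit of all genes.

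Members that act on protein folding, turnover, membranes and RNA were the most mixed group. Of these 7, 1 was called higher, against 7.69% of all tested genes. Sgta, a cochaperone of tail-anchored protein targeting and the first member along the chromosome, had 129, 117 and 125 CPM in the knockout libraries, against 118, 133 and 126 CPM in wild type. Its groups overlapped fully, at a log2 fold change of -0.02 (SE 0.09). Thop1, a cytosolic peptidase, had 98.96, 75.6 and 97.4 CPM in the knockout libraries, against 98.4, 113 and 103 CPM in wild type. KO2 was the lowest library and WT2 the highest, and the log2 fold change of -0.21 (SE 0.12) was the lowest among the members.

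Ncln, nicalin, part of the translocon for multipass membrane proteins, had 165, 165 and 158 CPM in the knockout libraries, against 149.8, 160.5 and 151 CPM in wild type. The values overlapped and the log2 fold change was 0.08 (SE 0.08), between neighbours at 0.54 (Nfic) and 0.81 (Gna11). Apba3, an adaptor that binds the amyloid precursor protein, had 87.9, 53.96 and 87.1 CPM in the knockout libraries, against 46.6, 44.3 and 39.9 CPM in wild type. It was called higher, at a log2 fold change of 0.81 (SE 0.18). Apba3 and Mrpl54 start head to head with 25 bases between them, and their log2 fold changes were 0.81 and 0.77.

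Mfsd12, a transporter of the lysosome and melanosome, had 29.3, 18.5 and 27.9 CPM in the knockout libraries, against 15.4, 17.3 and 18.1 CPM in wild type. The groups did not overlap, but KO2 stood close to WT3, at a log2 fold change of 0.57 (SE 0.18). Cactin, a spliceosome-associated protein, had 109, 62.5 and 109 CPM in the knockout libraries, against 68.1, 64.4 and 51.5 CPM in wild type. KO2 lay inside the wild-type range, and the log2 fold change was 0.61 (SE 0.21). Over 18 alternative settings of the fit it ran from 0.50 to 0.91, the highest without KO2 and WT1. Zfr2, a relative of a zinc finger RNA-binding protein, was among the least expressed members, at 0.406 FPKM in knockout and 0.272 FPKM in wild-type libraries. It had 2.84, 2.74 and 3.52 CPM in the knockout libraries, against 3.41, 1.27 and 1.48 CPM in wild type, with WT1 inside the knockout range and a log2 fold change of 0.58 (SE 0.38). It was 1.15 without WT1, 0.33 without WT2 and 0.39 without WT3.

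A cluster of C2H2 zinc finger genes fills the sparse middle of the block, apart from BC025920, which lies before it between Tle6 and Sirt6. The table assigns BC025920, Gm10778, Gm3055, Gm32687, BC024063, AU041133 and Gm4924 to this family. They were weakly expressed, with a summed CPM of 37.3 in knockout and 28.3 in wild type. Of the 7, 0 were called, against 7.69% of all tested genes called higher and 7.48% lower. Zfp433, Zfp781, Zfp873 and Zfp938, which lie among them but were left out by name, were at 0.57, 0.28, 0.39 and 0.85. Of these, only Zfp938 was called higher. Such genes have near-identical copies among which reads may be divided, so single values are uncertain. AU041133 had 5.34, 7.95 and 4.12 CPM in the knockout libraries, against 3.45, 3.07 and 2.85 CPM in wild type, without overlap and with KO2 highest, at a log2 fold change of 0.90 (SE 0.26). Gm32687 had 5.12, 6.35 and 4.15 CPM in the knockout libraries, against 4.11, 2.32 and 3.39 CPM in wild type, with KO3 barely above WT1, at 0.68 (SE 0.26). Lowest of the cluster on a per-length scale were Gm3055, at 0.575 FPKM in knockout and 0.436 FPKM in wild-type libraries, and BC025920, at 0.676 FPKM in knockout and 0.718 FPKM in wild-type libraries.

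Gm3055 had 2.58, 2.07 and 2.497 CPM in the knockout libraries, against 2.38, 1.53 and 1.56 CPM in wild type, with WT1 inside the knockout range, at a log2 fold change of 0.39 (SE 0.27). BC025920 had 2.11, 2.20 and 2.39 CPM in the knockout libraries, against 3.27, 1.95 and 1.98 CPM in wild type, with WT1 above every knockout library, at -0.09 (SE 0.28). Their totals over the 6 libraries were 329 and 360 counts. The other members of the cluster were Gm10778 at a log2 fold change of 0.37 (SE 0.24), BC024063 at 0.34 (SE 0.24) and Gm4924 at 0.11 (SE 0.28), all with overlapping groups. In each of these 3, KO2 was the highest knockout library, and without it Gm10778 was at 0.10, BC024063 at 0.08 and Gm4924 at -0.15. The remaining members of the block were Ankrd24, an ankyrin repeat protein, at 0.37 (SE 0.36) with WT1 above every knockout library, and 1190007I07Rik. Ankrd24 was at 0.93 without WT1, 0.56 without KO2, 0.13 without WT2 and 0.20 without WT3. 1190007I07Rik had 13.6, 11.3 and 13.9 CPM in the knockout libraries, against 8.40, 9.62 and 8.48 CPM in wild type, without overlap, at a log2 fold change of 0.55 (SE 0.14).

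Along the chromosome the members fell into stretches, which were set off after their values were seen. The first 3, Sgta, Thop1 and Map2k2, had log2 fold changes between -0.21 and -0.01, and 0 of them were called. The next 14, from Zbtb7a to Nfic over 320.4 kb, were all positive, between 0.33 and 0.85, with 7 called and 10 without overlap of the groups. From Ncln to Ankrd24, 7 of 8 were positive and 3 were called, with Ncln (0.08), Tle2 (0.15) and BC025920 (-0.09) lying between members at 0.54 to 0.98. From Gm10778 to Gm4924, 6 zinc finger genes spread over 773.8 kb had a median of 0.38. The last 4, from 1190007I07Rik to Nfyb over 144.3 kb, were all called and without overlap, between 0.40 and 1.13. Members with little or no change thus sat next to members with a clear one. Over all tested genes, 7.69% were called higher, and in 18.3% every knockout library lay above every wild-type library.

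The edges of the interval cut through genes with varied values. Just before it lay Gadd45b at 0.72, Gng7 at 0.08 and Diras1 at -0.25 on the log2 scale. Diras1, the nearest tested protein-coding gene before the interval, had 1.46, 0.925 and 0.985 CPM in the knockout libraries, against 1.12, 1.65 and 1.22 CPM in wild type, with overlapping groups. The first gene inside, Slc39a3, was left out by name at 0.44. At the far end, the last genes inside were Txnrd1, left out by name at 0.54, and Eid3, under the count minimum at -0.39. Chst11, the nearest tested gene after the interval, had 63.4, 55.3 and 64.9 CPM in the knockout libraries, against 30.3, 40.6 and 37.6 CPM in wild type. Its groups were separate at a log2 fold change of 0.76 (SE 0.13). Beyond it came Slc41a2 at 1.05, Nopchap1 at -0.06 and Aldh1l2 at 1.37.

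Within 2 Mb before the interval, 73 protein-coding genes were tested, 3 were called higher and 2 lower, and the median log2 fold change was -0.05. Within 2 Mb after it, 11 were tested, 4 were called higher and 1 lower, and the median was 0.30. Among all tested protein-coding genes, 9.02% were called higher and 8.46% lower. The 547 tested protein-coding genes of chromosome 10 outside the interval, which include those of both flanks, had a median of 0.00, with 56 higher and 37 lower. Of the protein-coding genes inside that the rule dropped, the 7 left out by name had a median of 0.54 and 3 calls, and the 5 tested under the count minimum had a median of 0.50 and 1 call. The 10 tested noncoding rows inside had a median of 0.52 and 1 call, against 7.69% of all tested genes called higher. At the count minimum, Gm3055 (329 counts), BC025920 (360) and Zfr2 (398) were just inside, and Gipc3 (242 counts, log2 fold change 0.71), Eid3 (203, -0.39) and Matk (184, -0.33) just outside. Median log2 fold changes of whole chromosomes ran from -0.07 on chromosome 2 to 0.16 on chromosome 11.

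**Figure D3:**
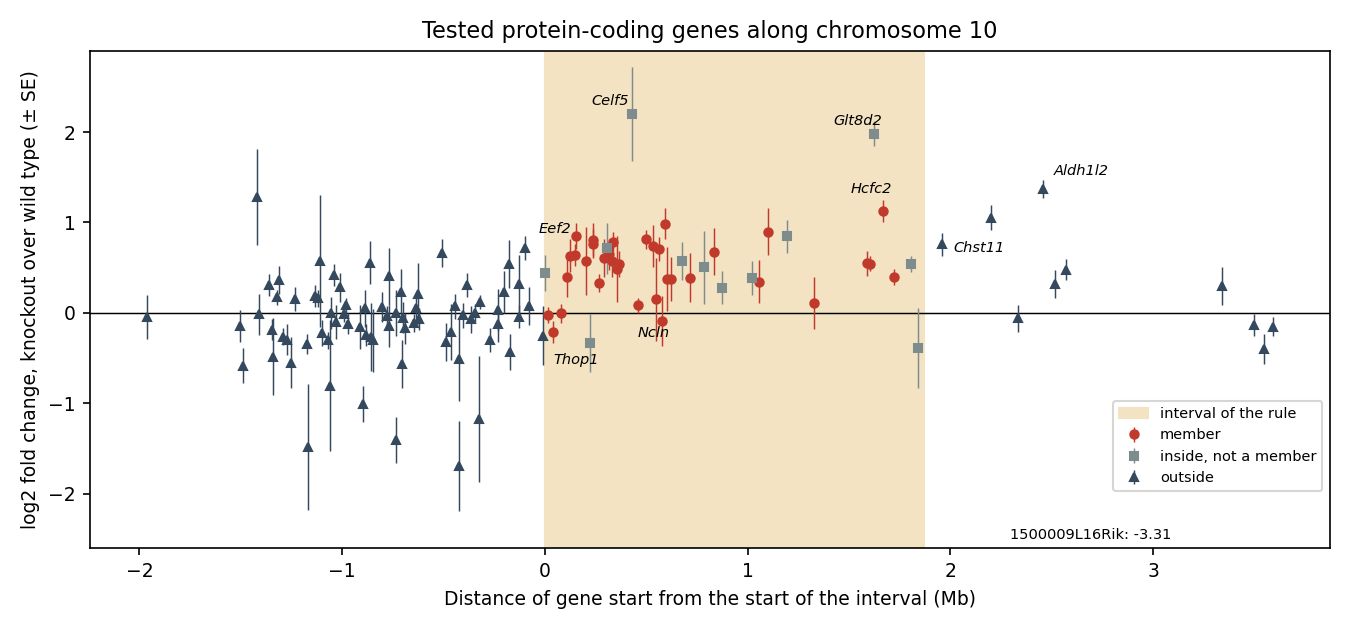
Log2 fold change of each tested protein-coding gene (knockout over wild type, bars are SE) against the distance of its start from the start of the interval in Mb, with the interval shaded; red circles are members, grey squares other genes inside, dark triangles genes outside. Most red circles lie above 0 while triangles to the left scatter around it with a median of -0.05; 1500009L16Rik, at -3.31, lies below the axis and is given as text.

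The members' values in single libraries moved with the GC content of their transcripts. Over 14666 tested genes with a GC value, the correlation of a library's deviation with GC was 0.26, -0.27 and 0.26 in KO1, KO2 and KO3, and -0.03, -0.03 and -0.16 in WT1, WT2 and WT3. Of the 25 members with GC of 50% or more, KO2 was the lowest knockout library in 24. Of the 10 with lower GC, it was the highest in 8. The median of the 25 GC-rich members over the wild-type mean was 0.72, 0.16 and 0.78 in KO1, KO2 and KO3, against 0.04, 0.05 and -0.09 in WT1, WT2 and WT3, on the log2 scale. For the 10 others it was 0.41, 0.68 and 0.37 in the knockout libraries, against 0.15, -0.18 and 0.03 in wild type. Once the trend with GC was removed in each library, the median over all 35 members was 0.55, 0.49 and 0.60 in KO1, KO2 and KO3, against 0.01, 0.03 and -0.02 in WT1, WT2 and WT3. The knockout libraries then stood at similar levels, all above wild type, and 21 members were called higher, in a fit that called 9.89% of all tested genes higher. That correction was chosen after the data were seen.

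**Figure D4:**
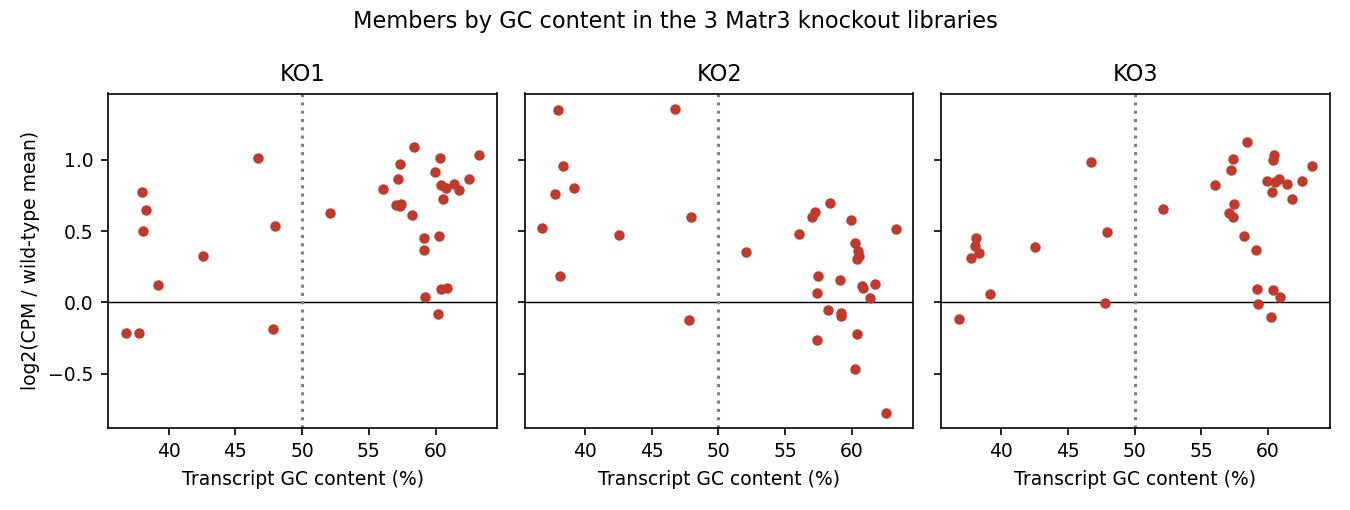
Log2 of CPM over the wild-type mean for the 35 members against transcript GC content in percent, in 1 panel for each Matr3 knockout library; the dotted line marks the split at 50%. In KO1 and KO3 the GC-rich members lie higher, with medians of 0.72 and 0.78 against 0.41 and 0.37 for the GC-poor ones, and in KO2 lower, at 0.16 against 0.68.

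The count of members called higher depended on which libraries were used. Without KO2 and WT1, 27 members were called higher, with a median log2 fold change of 0.69, in a fit that called 25.3% of all tested genes higher. The fits without KO1, WT2 or WT3 called 7 members each, and called 3.09%, 3.03% and 2.57% of all tested genes higher. Without KO3 the fit called 9 members, of which 8 were among the 14, and 2.97% of all tested genes higher. Without KO2 it called 21 members and 15% of all tested genes higher. Over 18 alternative settings, Dapk3, Fzr1, Gna11, Sirt6, Tdg and Hcfc2 were called each time, Eef2 and Tle6 in 16, and Sgta, Thop1, Map2k2, Ncln, BC025920, BC024063, Gm10778 and Gm4924 in 0. Hcfc2 ranged from 0.96 to 1.22 and Eef2 from 0.55 to 0.71. In the authors' deposited table, the log2 fold change was positive in 32 of the 35 members, with a median of 0.51 and a range from -0.19 to 1.05.

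Promoter windows were found for 31 members, as 40 windows in the RefSeq table, since some genes have several starts. Mrpl54, Pias4, Tle5 and BC025920 had no entry. A GC box (GGGCGG or its complement) was in 70.0% of the members' windows, against 58.3% of 12248 windows of tested protein-coding genes and 32.7% of all 32851 windows. CCAAT was in 40.0% of the members' windows, against 35.7% and 33.9% in those sets, and TATAAA in 2.5%, against 6.49% and 12.4%. TGACGTCA, which reads the same on both strands, was in 5 windows, or 12.5%, against 2.58% and 1.55%. These 5 belong to Sgta (2 overlapping windows), Dapk3, Zfr2 and Tdg. The single TATAAA was that of Eef2. The median GC content of the windows was 59.6%, against 60.0% for tested protein-coding genes.

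Genes that work with, or are related to, genes of the interval but lie on other chromosomes were compared next, since the choice of the block did not use them. The lists of these genes were drawn up with earlier results of these data known, which limits how their calls can be read. In 16 lists of relatives and partners, 129 of 135 genes off chromosome 10 were tested. By edgeR's quasi-likelihood test with Benjamini-Hochberg adjustment over all tested genes, 7 were higher in knockout, 3 lower, and 119 did not pass. Of the 16 lists, those around Tjp3 and Creb3l3 belong to genes inside the interval that are not members. In the 14 lists around members, 4 of 115 tested genes were higher and 3 lower. The called shares over all 16 lists were 5.43% and 2.33%, against 7.69% and 7.48% of all tested genes. The median log2 fold change of the 129 was -0.02, as over all tested genes. Leaving out KO2 and WT1 gave 29 higher and 42 lower, in a fit that called 25.3% of all tested genes higher and 25.7% lower.

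Relatives of members are named here after their values were seen, so these log2 fold changes are a description. Beside Eef2 at 0.64, the elongation factors Eef1a1, Eef1b2, Eef1d and Eef1g had log2 fold changes from -0.11 to 0.07. Gnaq, the nearest relative of Gna11, was at -0.14, and Hcfc1, that of Hcfc2, at -0.17. Nfya and Nfyc, which form the NF-Y trimer with Nfyb, were at -0.22 and 0.04. The other NFI genes Nfia, Nfib and Nfix were at -0.37, -0.01 and 0.10, and Tle1, Tle3 and Tle4 at -0.06, -0.35 and -0.23. Cdc20, the other activator of the anaphase-promoting complex, was at 0.17. Pias3, a relative of the member Pias4, was at 0.33, with Pias1 and Pias2 at -0.06 and -0.25. Beside Pip5k1c at 0.33, Pip5k1b was at 0.62 and Pip5k1a at -0.05.

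**Figure D5:**
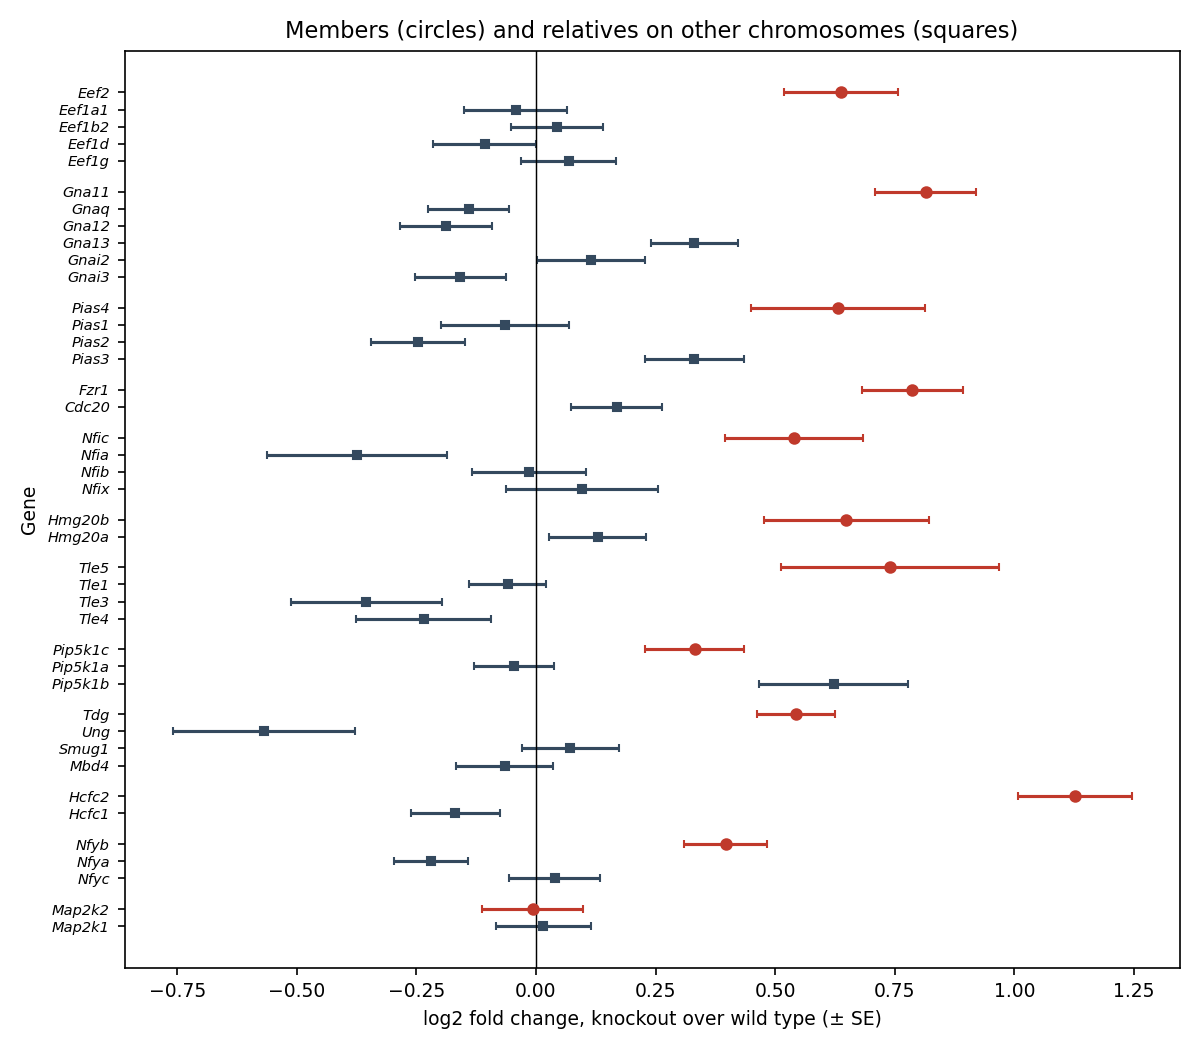
Log2 fold change (knockout over wild type, bars are SE over the fit of 6 libraries) for 12 members, as red circles, each followed by its relatives on other chromosomes, as dark squares. Red circles lie right of 0 for every member shown but Map2k2, and most squares lie near or left of 0, with Pip5k1b at 0.62 the farthest to the right.

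Most lists of partners with a call held a single called gene, while the translation and tight junction lists held more. Eef2k, the kinase that inhibits Eef2 by phosphorylation, had 26.2, 25.4 and 27.5 CPM in the knockout libraries, against 16.2, 18.2 and 17.4 CPM in wild type. It rose without overlap, at a log2 fold change of 0.61 (SE 0.10) and an adjusted p of 0.00696 by edgeR. Dhps, which acts just before Dohh in making hypusine, had 25.1, 27.7 and 26.2 CPM in the knockout libraries, against 33.2, 35.4 and 34.9 CPM in wild type. It fell, at -0.39 (SE 0.09) and an edgeR adjusted p of 0.0264. The other 11 tested genes of the translation list did not pass, among them Eif5a at -0.12 and the diphthamide genes at -0.31 to 0.19.

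The list built around Tjp3, a tight junction scaffold that lies inside the interval at 15 counts and so is no member, had 3 of 7 tested genes higher and 0 lower. Ocln, occludin, had 21.1, 20.5 and 20.96 CPM in the knockout libraries, against 10.7, 11.8 and 10.6 CPM in wild type. It rose without overlap, at a log2 fold change of 0.92 (SE 0.10) and an adjusted p of 0.00186 by edgeR. F11r, the junctional adhesion molecule, had 61.1, 53.4 and 59.9 CPM in the knockout libraries, against 29.9, 35.97 and 32.9 CPM in wild type and rose at 0.82 (SE 0.10) with an edgeR adjusted p of 0.00262.

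Of the 5 phosphoinositide kinases tested, Pip5k1b rose, at 13.4, 15.2 and 12.9 CPM in the knockout libraries, against 7.47, 8.83 and 10.7 CPM in wild type (log2 fold change 0.62, SE 0.16, edgeR adjusted p 0.0326). Gna13, another G alpha subunit, was the single called gene of 12 in the G protein list, at a log2 fold change of 0.33 (SE 0.09, edgeR adjusted p 0.0446). Anapc11, the RING subunit of the anaphase-promoting complex, was the single one of 14, at a log2 fold change of 0.32 (SE 0.09, edgeR adjusted p 0.0461). Phf21a, a histone reader in the LSD1 complex with Hmg20b, fell to 61.1 to 64.9 CPM in knockout, against 77.6 to 85.9 CPM in wild type (log2 fold change -0.37, SE 0.08, edgeR adjusted p 0.0222). Wdr5, a core subunit of H3K4 methyltransferases, fell to 73.2 to 75.9 CPM, against 89.3 to 97.4 CPM in wild type (log2 fold change -0.32, SE 0.08, edgeR adjusted p 0.0329). The calls of Eef2k, Ocln and F11r held under all 18 alternatives. Those of Dhps, Gna13, Anapc11, Phf21a, Pip5k1b and Wdr5 were each lost when KO1, KO3 or WT2 was left out, and those but Pip5k1b also without WT3. Leaving out WT1 ended the calls of Gna13, Anapc11, Pip5k1b and Wdr5. With the replicate number as a block in the fit, 3 partner genes were called higher and 1 lower. That fit called 5.30% of all tested genes higher and 5.48% lower.

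No gene passed in the other 9 lists, at an adjusted p under 0.05 by edgeR: CREB3 factors and their proteases (7 tested), base excision enzymes (10), the ERK cascade (8), Groucho corepressors (3), HSP90 and tail-anchor targeting (11), NFI and NF-Y factors (5), SUMO conjugation (10), death-associated kinases (1) and the multipass translocon (4). Within them, Map2k1, the partner of Map2k2, was at 0.02, and Ung, which like Tdg removes uracil from DNA, was at -0.57 (SE 0.19). Of the 59 genes in these lists, 9 were higher and 6 lower at an unadjusted p under 0.05. DESeq2 called 3 of them lower after adjustment and 0 higher, and limma voom called 0.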

How the data were processed

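Bulk mRNA-seq of 6 Hepa1-6 libraries was used, with groups and replicate numbers read from the sample titles. The authors deposited 1 table with whole-number counts per gene, FPKM values and their own log2 fold changes, per the file headers. Aligner, counter and test: not given in the sources used here. FPKM values as deposited equal counts over length and a library size of 0.970 to 1.05 times the column total. The deposited log2 values are quoted only where named. The submitters' processing notes name GRCm38 and mm10, but all 35 members lie 164166 bases away from their GENCODE M21 (GRCm38) coordinates, so table coordinates are printed as given and their release is not settled. The labels record no batch.

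Counts were fitted in edgeR 4.0.16 (R 4.3.3): filterByExpr kept 14842 of 27065 genes with a count, with TMM scaling, the quasi-likelihood F test of knockout against wild type with no covariate, and Benjamini-Hochberg adjustment, called under 0.05. CPM use TMM-adjusted library sizes. The 159 unannotated rows, with 0.242% of counts, stayed in. GC is that of GENCODE M21 transcripts matched by gene ID. Motifs were searched on both strands of 250-base RefSeq windows (GRCm38.p6).

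The members, the 16 partner lists and the tests were chosen with earlier results of these data known. All members could be named; per-library values were planned for those at the ends, with extreme levels or changes, or with well established roles, and for called partners. Alternatives were RLE factors, library totals, 2 other count filters, protein-coding genes alone, DESeq2 1.42.0, limma 3.58.1 (voom, and log2(FPKM + 1) or log2(FPKM + 0.1)), a replicate block, each library left out, a member count minimum of 100 or 1000, and an adjusted p under 0.01. The fit was tested on simulated counts. A gene that the lists would name is not reported here.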

Additional observations from a re-analysis of the deposited data

How the results depend on the processing

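The median log2 fold change of the members stayed between 0.47 and 0.69 under every alternative run, against 0.55, and 0 members were called lower in any. No member's value with a call changed sign. Against 2252 calls over all genes, 14 members called higher, and 7 partner genes higher and 3 lower, counts moved as follows. Without KO2 and WT1, an alternative added after seeing the data, they were 7556, 27, 29 and 42. Leaving out 1 library at a time gave 807 to 4295 genes, 7 to 21 members, 3 to 16 partners higher and 0 to 14 lower. An adjusted p under 0.01 gave 721, 6, 3 and 0. With no filter on low counts 22 members were called higher, in a fit that called 5.82% of 27065 tested genes higher. Partners called lower numbered 9 with DESeq2, 13 with the GC trend removed (also added later) and 5 with protein-coding genes alone. The cause of these shifts was not tested. Same-numbered libraries deviated together with correlations of 0.17, -0.03 and -0.20 for numbers 1, 2 and 3. Correlations between libraries of differing number ran from -0.221 to 0.285. With 3 libraries per group, these values cannot tell whether the numbers pair the libraries. With the replicate block, 12 members and 3 partner genes were called higher and 1 partner lower. That fit called 5.30% of all tested genes higher and 5.48% lower. Low totals, of 329 counts for Gm3055, 360 for BC025920 and 398 for Zfr2 over the 6 libraries, limit the precision of these values.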
